A study of Drosophila melanogaster with 12 samples.

Results

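The UDP-glycosyltransferases of Drosophila melanogaster were described as the 35 genes whose symbol in the array's platform table starts with Ugt and a digit, of 11982 genes that the table names. Each was measured by 1 probe set, a group of short probes read together, and no probe set named a Ugt gene together with another gene. The 35 genes fall into 13 families, given by the number in the symbol, and 28 subfamilies, given by the number and letter. Choosing by symbol used no measured value, but the members were chosen with earlier results of these data known.

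UDP-glycosyltransferases are membrane enzymes of the endoplasmic reticulum that transfer a sugar from a UDP-sugar donor to a small fat-soluble acceptor, which makes the product easier to dissolve and excrete. In insects the sugar is usually glucose. The enzymes act on drugs, insecticides, plant toxins and odorants and also on the body's own hormones and pigments, and they are counted among the conjugating enzymes of detoxification, downstream of the cytochrome P450s. Phenobarbital is a barbiturate widely used to induce drug-metabolising enzymes in mammals and insects, and DHR96, the product of the gene Hr96, is a fly nuclear receptor studied for its part in such responses.

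RNA of adult flies was measured on 12 oligonucleotide arrays, 3 for each of 4 groups. Canton S flies, a strain often used as wild type, were given sucrose or sucrose with 0.3% phenobarbital, and flies whose titles carry the code E25 were given the same diets; all had first gone without food overnight. E25 was read as the DHR96 mutant because the series names no other strain, and the sources used here give neither its allele and genetic background nor the sex of the flies or the time on the diet. Nor do the labels say whether the 3 arrays of a group hold separately reared flies, and the p-values may therefore rest on technical spread alone.

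Values are given as log2 of the deposited intensity, and a group mean below 4 is called dim, since values there are set largely by the background correction. Levels of different genes come from different probes and are not compared. Median intensity per array was 38.5 to 47.5 over 18769 probe sets. Hr96 lay between 8.20 and 8.85 on the wild-type arrays and between 9.91 and 10.30 on the arrays labelled mutant, so its transcript was not lower in the mutant and does not itself show a loss of function.

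Phenobarbital raised Ugt genes in both genotypes, and the largest rises were those of Ugt35C1 and Ugt37A2. In wild type 8 of 35 members rose and Ugt36D1 alone fell (limma, adjusted p under 0.05 over all probe sets and at least 1.5-fold). That is 22.9% and 2.86% of the members, against 2.27% of all probe sets called higher and 2.0% called lower. In the mutant 13 members rose and 0 fell, or 37.1% of the members, against 3.08% of all probe sets called higher and 1.53% called lower. Over all 35 members the median log2 change was 0.17 (wild type) and 0.20 (mutant), against 0.02 and 0.00 over all probe sets. All 8 genes that rose in wild type rose in the mutant too, 100% of the one list and 61.5% of the other. The changes come from separate arrays, but the calls share an estimate of spread from all arrays, so the lists are not independent. All phenobarbital arrays lay above all sucrose arrays in 45.7% of the members in wild type and 48.6% in the mutant. Over all probe sets these shares were 7.11% and 15.3%. They lay below in 5.71% and 11.4% of the members, near the 7.17% and 11.1% of all probe sets. In the mean of the responses of both genotypes, 13 members rose and 3 fell, against 3.01% and 2.69% of all probe sets. Called either way were 25.7% of the members in wild type against 4.27% of all probe sets, 37.1% in the mutant against 4.62%, and 45.7% in the mean against 5.70%.

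**Figure D1:**
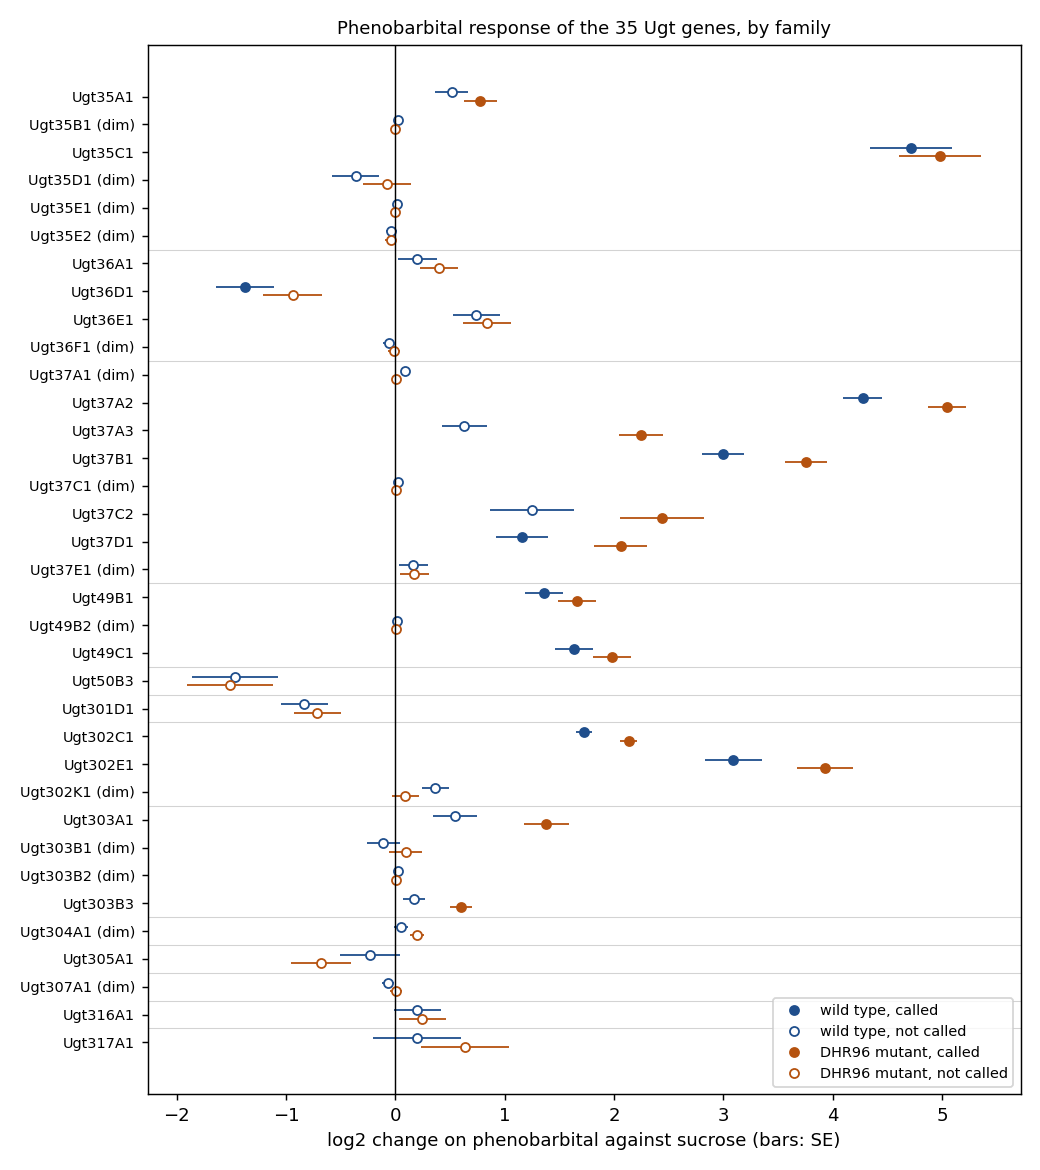
Log2 change on phenobarbital against sucrose (x axis) for the 35 Ugt genes (y axis), ordered by family, in wild type (blue) and in the DHR96 mutant (orange). Points are the fitted changes from 3 arrays per group, bars are standard errors, filled points passed the test, and genes marked dim had a mean below 4 in all 4 groups. Ugt35C1, Ugt37A2, Ugt37B1 and Ugt302E1 lie farthest to the right in both genotypes.

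In family 37, the largest with 8 members, 3 rose in wild type and 5 in the mutant. Ugt37A2 read 7.90, 7.57 and 7.20 in wild type on sucrose and 11.63, 11.84 and 12.02 on phenobarbital. The mutant arrays read 7.07, 6.74 and 6.69 on sucrose and 11.80, 11.90 and 11.94 on phenobarbital. Every phenobarbital array was far above every sucrose array, with rises of 4.27 ± 0.18 and 5.05 ± 0.18 (log2, SE) in wild type and mutant, or 19.4-fold and 33.0-fold (limma, adjusted p = 2.25e-06 and adjusted p = 6.28e-07).

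Ugt37B1 lay close to the dim limit on sucrose, at 4.39, 4.33 and 3.80 in wild type and 3.70, 3.74 and 3.83 in the mutant. On phenobarbital it read 6.99, 7.45 and 7.06 in wild type and 7.65, 7.68 and 7.22 in the mutant. The diets did not overlap in either genotype, and the rises were 2.99 ± 0.19 and 3.76 ± 0.19 (limma, adjusted p = 2.9e-05 and adjusted p = 6.2e-06). Ugt37D1 was well measured on both diets, at 8.60, 8.09 and 7.52 in wild type on sucrose and 9.04, 9.46 and 9.19 on phenobarbital, a rise of 1.16 ± 0.24 (limma, adjusted p = 0.022). Its mutant arrays went from 7.48, 7.39 and 7.42 to 9.72, 9.40 and 9.35, a rise of 2.06 ± 0.24 (adjusted p = 0.000798). The 3 wild-type arrays on sucrose were spread over more than 1 unit where those of the mutant nearly coincided. The wild-type rise of Ugt37D1 was not past the threshold without wild-type sucrose replicate 2 (adjusted p = 0.0666), without wild-type phenobarbital replicate 2 (adjusted p = 0.0836) or replicate 3 (adjusted p = 0.0632), or with only the 6 wild-type arrays fitted (adjusted p = 0.22).

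Ugt37A3 and Ugt37C2 rose in the mutant from dim levels. Ugt37A3 read 3.85, 3.57 and 3.37 in the mutant on sucrose and 6.01, 5.53 and 5.99 on phenobarbital, a rise of 2.25 ± 0.20 (limma, adjusted p = 0.000185). In wild type it read 3.58, 3.77 and 3.53 on sucrose and 3.88, 4.33 and 4.57 on phenobarbital, a change of 0.63 ± 0.20 that did not pass the test (adjusted p = 0.15) but did without wild-type phenobarbital replicate 1. Ugt37C2 stood at 2.46, 2.49 and 2.44 in the mutant on sucrose and at 4.45, 5.33 and 4.94 on phenobarbital, a rise of 2.44 ± 0.38 (adjusted p = 0.00495). Its wild-type arrays read 2.45, 2.49 and 2.49 on sucrose and 3.06, 3.40 and 4.73 on phenobarbital, and this change of 1.25 ± 0.38 did not pass the test (adjusted p = 0.125), the phenobarbital arrays being far apart. The sizes of these rises depend on the background: with 16 added to each intensity, the rise in the mutant was 1.39 for Ugt37A3 and 1.11 for Ugt37C2, both still called. The other members of the family, Ugt37A1, Ugt37C1 and Ugt37E1, were dim in all groups, between 2.13 and 2.67.

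In family 35, with 6 members, the response was concentrated in Ugt35C1. RefSeq lists this gene under the older symbol Ugt86Dd, which is known from genetic mapping of nicotine resistance in fly larvae. It read 4.47, 5.87 and 4.88 in wild type on sucrose and 9.82, 9.98 and 9.56 on phenobarbital. In the mutant it read 5.52, 4.61 and 5.73 on sucrose and 10.21, 10.37 and 10.23 on phenobarbital. The phenobarbital arrays lay above every sucrose array by more than 3 units, and the sucrose arrays of both genotypes overlapped. The rises were 4.72 ± 0.38 and 4.98 ± 0.38, or 26.3-fold and 31.6-fold (limma, adjusted p = 9.7e-05 and adjusted p = 6.5e-05).

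Ugt35A1 changed little by comparison. It read 6.99, 7.23 and 7.12 in the mutant on sucrose and 7.85, 8.01 and 7.80 on phenobarbital, a rise of 0.78 ± 0.15 (limma, adjusted p = 0.0157). In wild type its values of 7.77, 7.18 and 7.27 on sucrose and 7.74, 7.99 and 8.03 on phenobarbital overlapped, and the change of 0.51 ± 0.15 was not called (adjusted p = 0.108), except without wild-type sucrose replicate 1. Ugt35B1, known from fly antennae, Ugt35D1, Ugt35E1 and Ugt35E2 were dim in all groups, between 2.03 and 3.17. The call of Ugt35A1 in the mutant was lost without mutant sucrose replicate 1 (adjusted p = 0.0666) or replicate 3 (adjusted p = 0.0585) and without mutant phenobarbital replicate 2 (adjusted p = 0.0679), and with the replicate number as a block (adjusted p = 0.0519).

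Of the 3 members of family 302, Ugt302C1 and Ugt302E1 rose in both genotypes. Ugt302C1 had the tightest replicates among the strong responders, at 9.51, 9.42 and 9.34 in wild type on sucrose and 10.99, 11.18 and 11.28 on phenobarbital. The corresponding mutant values were 9.32, 9.35 and 9.18 on sucrose and 11.41, 11.44 and 11.40 on phenobarbital. The rises were 1.73 ± 0.08 and 2.13 ± 0.08 (limma, adjusted p = 3.05e-06 and adjusted p = 6.48e-07). Ugt302E1 was dim on sucrose, at 4.20, 3.65 and 3.50 in wild type and 3.16, 3.69 and 3.18 in the mutant. On phenobarbital it read 6.45, 6.97 and 7.22 in wild type and 7.02, 7.29 and 7.50 in the mutant, above every sucrose array. These were rises of 3.09 ± 0.26 and 3.93 ± 0.26 (limma, adjusted p = 0.000127 and adjusted p = 2.89e-05). Ugt302K1 was dim in all groups, between 3.29 and 4.04.

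In family 49, the neighbours Ugt49B1 and Ugt49C1 rose by similar amounts and Ugt49B2, dim between 2.09 and 2.15, was not called. Ugt49B1 read 8.19, 8.09 and 7.53 in wild type on sucrose and 9.08, 9.56 and 9.25 on phenobarbital, and 7.81, 7.77 and 7.87 against 9.49, 9.57 and 9.37 in the mutant. The diets did not overlap in either genotype, with rises of 1.36 ± 0.17 and 1.66 ± 0.17 (limma, adjusted p = 0.00152 and adjusted p = 0.000416). Ugt49C1 read 6.32, 6.22 and 6.07 in wild type on sucrose and 7.41, 8.21 and 7.89 on phenobarbital, a rise of 1.64 ± 0.17 (adjusted p = 0.000511). In the mutant it read 6.26, 6.10 and 6.29 on sucrose and 8.17, 8.30 and 8.12 on phenobarbital, a rise of 1.98 ± 0.17 (adjusted p = 0.000154). The sucrose arrays of Ugt49C1 spanned only 6.07 to 6.32 over both genotypes. With only the 6 wild-type arrays fitted, Ugt49B1 was not called (adjusted p = 0.0687).

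**Figure D2:**
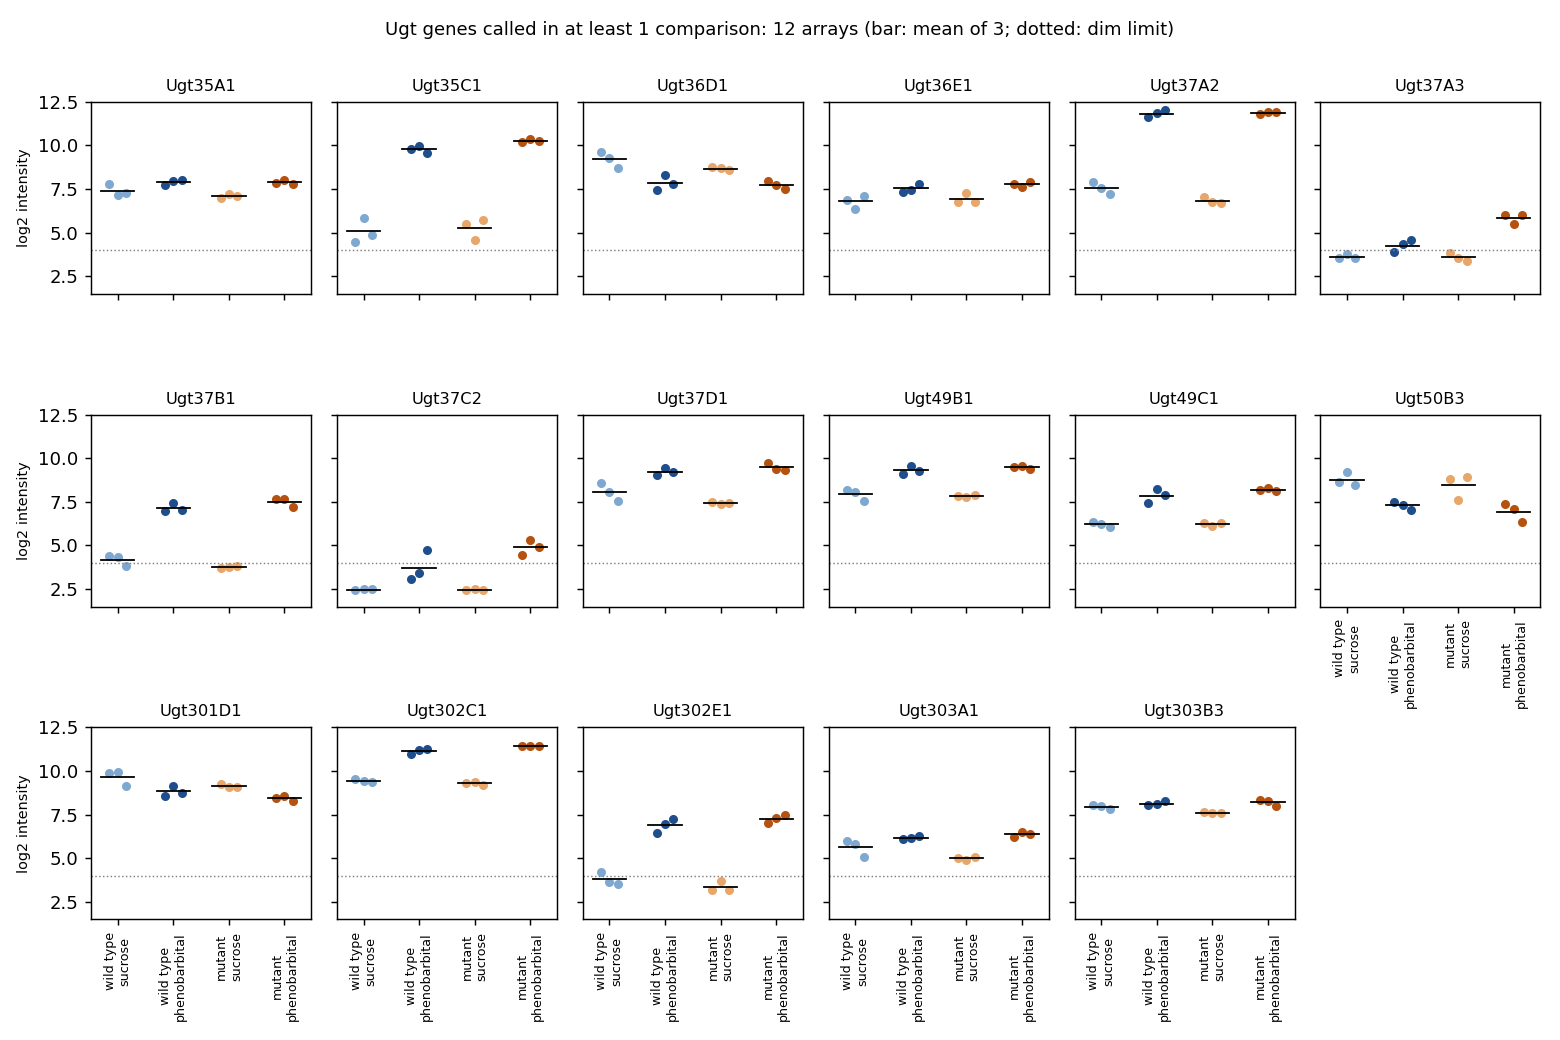
Log2 intensity (y axis) of the 17 Ugt genes called in at least 1 comparison, with 1 point per array and 3 arrays per group (x axis). Bars are group means and the dotted line is the dim limit of 4. Ugt35C1, Ugt37A2, Ugt37B1, Ugt302C1 and Ugt302E1 separate the diets in both genotypes, while the phenobarbital arrays of Ugt37A3 are higher in the mutant.

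The 4 genes of family 303 gave 2 rises in the mutant and 0 calls in wild type. Ugt303A1 read 5.04, 4.92 and 5.05 in the mutant on sucrose and 6.24, 6.51 and 6.40 on phenobarbital, a rise of 1.38 ± 0.20 (limma, adjusted p = 0.00325). Its wild-type arrays read 6.01, 5.79 and 5.08 on sucrose and 6.08, 6.18 and 6.26 on phenobarbital, close to those of the mutant on the drug, and the change of 0.55 ± 0.20 was not called (adjusted p = 0.235). Ugt303B3 read 7.65, 7.57 and 7.59 in the mutant on sucrose and 8.35, 8.25 and 7.99 on phenobarbital. This rise of 0.60 ± 0.10 (adjusted p = 0.00728) lies at the limit of 1.5-fold, at 1.51-fold, and was below it under quantile normalization (0.57), with 16 added to each intensity (0.56) and without mutant sucrose replicate 2 (0.58) or mutant phenobarbital replicate 1 (0.52) or 2 (0.57). In wild type Ugt303B3 read 8.06, 7.99 and 7.83 on sucrose and 8.02, 8.11 and 8.26 on phenobarbital. Ugt303B1 and Ugt303B2 were dim in all groups.

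Lower levels on phenobarbital were found in Ugt36D1, Ugt50B3 and Ugt301D1, the last 2 called only in the mean over both genotypes. Ugt36D1 read 9.64, 9.31 and 8.73 in wild type on sucrose and 7.45, 8.32 and 7.78 on phenobarbital, a fall with a log2 change of -1.38 ± 0.27 (limma, adjusted p = 0.0164). Mutant values were 8.74, 8.69 and 8.60 on sucrose and 7.99, 7.74 and 7.49 on phenobarbital, without overlap, and the change of -0.94 ± 0.27 was not called (adjusted p = 0.0918). The wild-type call of Ugt36D1 was lost without wild-type sucrose replicate 1 (adjusted p = 0.0555) or replicate 2 (adjusted p = 0.0609), without wild-type phenobarbital replicate 1 (adjusted p = 0.0544) or replicate 3 (adjusted p = 0.0597), and with only the 6 wild-type arrays fitted (adjusted p = 0.182). Averaged over both genotypes its change was -1.16 ± 0.19 (adjusted p = 0.00396).

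Ugt50B3 belongs to a family found across most insects. It read 8.64, 9.19 and 8.47 in wild type on sucrose and 7.51, 7.34 and 7.04 on phenobarbital, and 8.83, 7.61 and 8.92 against 7.37, 7.11 and 6.35 in the mutant. The diets did not overlap in either genotype, although mutant sucrose replicate 2 lay more than 1 unit below the others of its group. The mean change was -1.49 ± 0.28 (limma, adjusted p = 0.00827), while -1.47 ± 0.39 in wild type and -1.51 ± 0.39 in the mutant did not pass the test alone (adjusted p = 0.0732 and adjusted p = 0.0626). Without mutant sucrose replicate 2 both single comparisons were called. Ugt301D1 read 9.86, 9.96 and 9.16 in wild type on sucrose and 8.58, 9.16 and 8.74 on phenobarbital, meeting at 9.16. The mutant arrays stood at 9.24, 9.09 and 9.08 on sucrose and 8.45, 8.54 and 8.29 on phenobarbital. Its mean change was -0.77 ± 0.15 (adjusted p = 0.0109). Without wild-type sucrose replicate 3, Ugt301D1 was called lower in wild type and in the mutant and Ugt36D1 in the mutant, and without wild-type phenobarbital replicate 2 Ugt301D1 was called lower in wild type.

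Family 36 held a rise beside this fall. Ugt36E1, an enzyme known from olfactory neurons and pheromone discrimination in flies, read 6.90, 6.37 and 7.12 in wild type on sucrose and 7.34, 7.45 and 7.82 on phenobarbital. In the mutant it read 6.78, 7.26 and 6.75 on sucrose and 7.80, 7.63 and 7.88 on phenobarbital. The diets were separate in each genotype, and the mean rise of 0.79 ± 0.15 was called (limma, adjusted p = 0.0103), though neither genotype passed alone. In the mutant Ugt36E1 was called without wild-type sucrose replicate 2 or 3, without mutant sucrose replicate 2 and with dim probe sets left out, and in wild type with dim probe sets left out. Ugt36A1, also named Dot and known from the pericardial cells around the fly heart, lay between 4.41 and 5.56 with no call, and Ugt36F1 was dim.

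Marker lists of male glands, testis and midgut were read beside these 3 genes. In bulk RNA, fewer cells of a type and less RNA per cell cannot be told apart. The summed intensity of 14 male accessory gland markers, none of them dim in any group, was 102635 to 136741 in wild type on sucrose and 42849 to 76680 on phenobarbital. In the mutant it was 98351 to 153405 on sucrose and 38958 to 66782 on phenobarbital, and 13 of the 14 fell in the mean over both genotypes. The 16 testis markers summed to 40104 to 67729 and 32923 to 53509 in wild type and to 41442 to 67699 and 23834 to 37896 in the mutant, with 1 or 2 markers dim per group and 0 called (0 at an unadjusted p under 0.05 in wild type and 9 in the mutant). Within groups, the array with the highest Ugt50B3 was also the highest for the mean of the testis markers and of the accessory gland markers in 4 of 4 groups, and the lowest array was the same in 3 of 4. Ugt305A1, without a call, read 7.56, 8.24 and 7.41 in wild type on sucrose and 7.75, 7.56 and 7.20 on phenobarbital, and 7.74, 7.26 and 7.99 against 7.12, 7.19 and 6.64 in the mutant. Its highest and its lowest array were those of either list in 3 of 4 groups. In each group the array with the highest Ugt50B3 had the lowest mean log2 of the 17 female markers, of yolk, eggshell and oocyte. These means were 7.40 and 5.97 in wild type on sucrose and phenobarbital, and 10.36 and 7.26 in the mutant. In wild type on phenobarbital the next array was close, at 6. The lowest Ugt50B3 lay on the array with the highest female mean in wild type but not in the mutant. The share of all probe sets with such matches was not counted.

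The 6 midgut markers, none of them dim in any group, summed to 4826 to 6752 in wild type on sucrose and 2511 to 3185 on phenobarbital, and to 4292 to 4566 and 2734 to 3050 in the mutant. Of them the trypsin gene thetaTry alone was called lower, with a mean change of -1.49 ± 0.08 (limma, adjusted p = 3.43e-06). Vha100-4 (-0.58 ± 0.23), lambdaTry (-0.39 ± 0.23), GATAe (-0.32 ± 0.09) and betaTry (-0.12 ± 0.07) were lower without a call. The enterocyte gene mex1 stood at 0.04 ± 0.10. By limma 4 midgut markers had an unadjusted p under 0.05 in wild type, 1 in the mutant and 3 in the mean over both genotypes. For Ugt36D1 and for Ugt301D1, the array with the lowest value was the lowest for the mean of the midgut markers in 4 of 4 groups, and the highest array was the same in 3 of 4. With the testis and with the accessory gland markers, each of these genes shared the highest array in 1 of 4 groups and the lowest in 1. With the midgut markers, the highest array was shared in 0 of 4 groups by Ugt50B3 and in 1 by Ugt305A1, and the lowest in 2 by each. In the mutant on sucrose the midgut means were nearly tied, at 8.47, 8.44 and 8.42, so the order in that group rests on small differences. Array order was read for no other Ugt gene. The part of these tissues in the falls was not tested. Summed intensity of the 7 Malpighian tubule markers, from the excretory organ of the fly, was 3475 to 4093 on sucrose and 3968 to 4592 on phenobarbital over both genotypes. Of these markers 1 was called higher and 2 lower in the mean over both genotypes. The 4 fat body markers, from the organ that stores fat and sugar, summed to 7897 to 8800 on sucrose and 11539 to 12567 on phenobarbital in wild type, and to 7879 to 10085 and 12528 to 14752 in the mutant, with 3 of them dim in wild type on sucrose and 2 in each other group, and 1 rose in the mean over both genotypes. Their part in the rises of the Ugt genes was not tested.

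**Figure D3:**
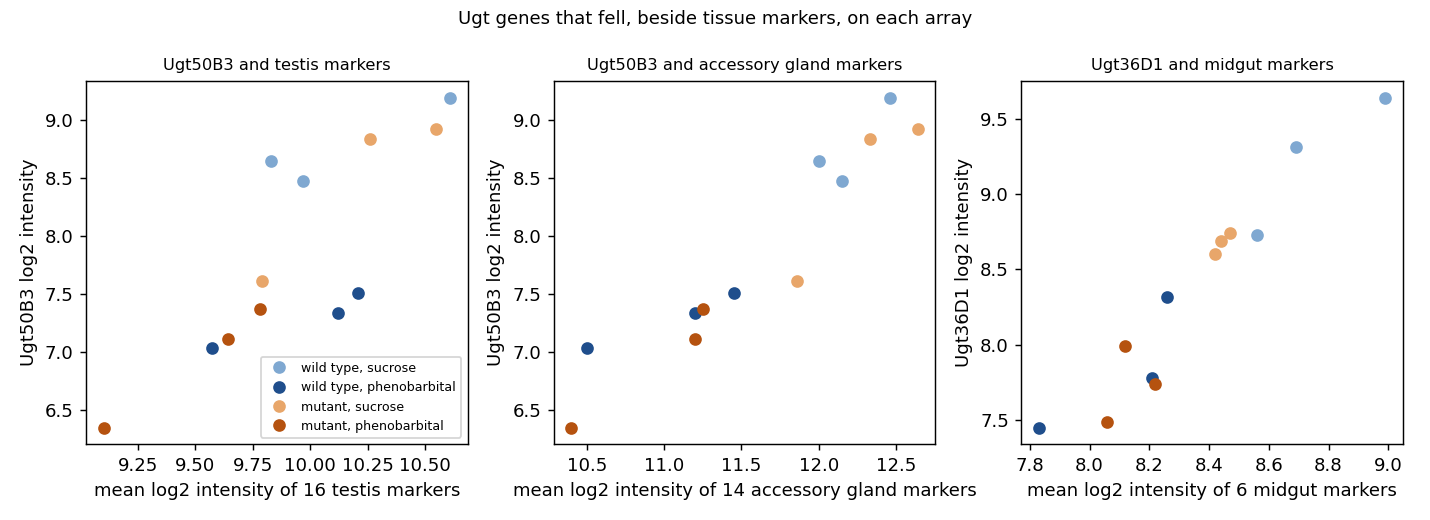
Log2 intensity of Ugt50B3 (y axis) against the mean log2 intensity of 16 testis markers and of 14 male accessory gland markers (x axes), and of Ugt36D1 against 6 midgut markers, with 1 point per array and colours for the 4 groups. Mutant phenobarbital replicate 3, at 6.35 for Ugt50B3, is lowest on both axes for the testis and accessory gland markers.

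The remaining genes gave no call. Of the 35 members, 14 were dim in all 4 groups and 0 of these were called. They read between 2.03 and 4.04, and 10 of the 14 spanned less than 0.5 over all 12 arrays, at the low end of the scale. Ugt304A1 and Ugt307A1, the single members of their families, read 2.12 to 2.54 and 2.07 to 2.34. The 4 other genes without a call were Ugt36A1, Ugt305A1, Ugt316A1 and Ugt317A1. Ugt316A1 was well measured, at 9.70, 9.0 and 9.86 in wild type on sucrose and 9.69, 9.55 and 9.93 on phenobarbital, and at 9.76, 10.04 and 9.62 against 9.96, 9.99 and 10.20 in the mutant. The diets overlapped in each genotype, with a mean change of 0.22 ± 0.15 (limma, adjusted p = 0.43). Ugt317A1 read 4.83, 4.43 and 4.46 in wild type on sucrose and 3.74, 5.34 and 5.24 on phenobarbital, 1 array of the latter lying below all those on sucrose. In the mutant its values were 4.35, 4.08 and 4.50 on sucrose and 4.75, 4.66 and 5.43 on phenobarbital. Without that wild-type array, phenobarbital replicate 1, Ugt317A1 was called higher in the mean over both genotypes.

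Many Ugt genes are neighbours on the chromosomes, and not all neighbours of a gene that rose were called. In the gene order of RefSeq Release 6 plus ISO1 MT, 23 of the 35 lie in 6 runs, in which at most 3 other protein-coding genes stand between one member and the next. Of the 13 genes that rose in the mean over both genotypes, 12 lie in such runs, and Ugt37B1 does not. The run of 10 on arm 3R, whose members carry the older symbols Ugt86Da to Ugt86Dj in RefSeq, begins with Ugt35C1 (mean change 4.85 ± 0.27). It goes on with Ugt302K1 (0.23 ± 0.09, not called), Ugt302E1 (3.51 ± 0.18) and Ugt302C1 (1.93 ± 0.05). Ugt35E1, Ugt35E2 and Ugt35B1 follow, all dim and within 0.04 of zero change. Ugt35A1 (0.65 ± 0.11), the dim Ugt304A1 (0.12 ± 0.04, not called) and Ugt303A1 (0.96 ± 0.14) close it.

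Ugt37A2 and Ugt37A3, of a single subfamily and next to each other on 3R, rose by 4.66 ± 0.12 and 1.44 ± 0.14 in the mean over both genotypes. On 2L, Ugt37C2 (1.85 ± 0.27) and Ugt37D1 (1.61 ± 0.17) rose on either side of Ugt37E1, which was dim and not called (0.17 ± 0.09). With 16 added to each intensity the mean rises were 0.85 for Ugt37A3 and 0.80 for Ugt37C2. Ugt36D1 fell (-1.16 ± 0.19) and its neighbour Ugt36E1 rose (0.79 ± 0.15), with Ugt36F1 dim on the other side. The pair Ugt49B1 and Ugt49C1 on 2R rose by 1.51 ± 0.12 and 1.81 ± 0.12. In the run of Ugt303B3, Ugt303B1 and Ugt303B2 on 3R none was called in the mean, the last 2 being dim. The probe sets of Ugt36E1, Ugt37D1 and Ugt50B3 carry the suffix s, which on these arrays marks probes shared by several transcripts. Their signal may therefore hold more than 1 transcript.

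**Figure D4:**
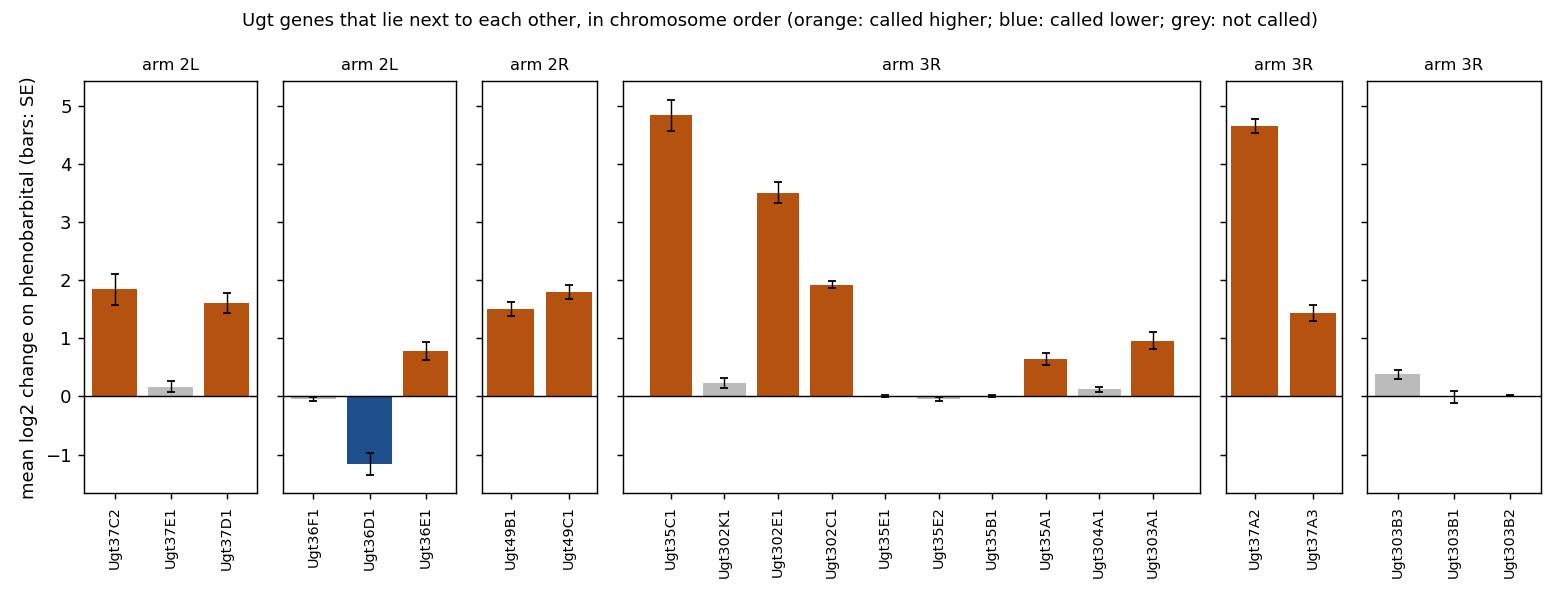
Mean log2 change on phenobarbital over both genotypes (y axis, bars with standard errors, 6 arrays per diet) for Ugt genes in the 6 runs of neighbours, in chromosome order (x axis, not to scale). Orange bars were called higher, the blue bar lower and grey bars neither. Responders stand beside genes without a call in 3 of these runs.

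The genotypes were compared on each diet, to ask whether the mutant differs in the level of these enzymes. On sucrose 0 of 35 members were called by limma (5 at an unadjusted p under 0.05), against 0.213% of all probe sets called, 0.0586% higher and 0.155% lower. The smallest adjusted p was that of Ugt37A2, at 7.56 ± 0.35 in wild type and 6.83 ± 0.20 in the mutant (SD, n = 3 each; change -0.72 ± 0.18, SE, adjusted p = 0.17). Without wild-type sucrose replicate 3, Ugt37A2 and Ugt303A1 were called lower in the mutant. On phenobarbital Ugt37A3 alone was called, 2.86% of the members against 0.117% of all probe sets called, 0.0746% higher and 0.0426% lower. It was at 4.26 ± 0.35 in wild type and 5.84 ± 0.27 in the mutant (SD, n = 3 each), a difference of 1.58 ± 0.20 (SE, adjusted p = 0.0277). The lowest mutant array, at 5.53, was above the highest wild-type array, at 4.57. On this diet all mutant arrays lay above all wild-type arrays in 9.94% of all probe sets, and below them in 41.5%. Of the members 5 (14.3%) lay above and 11 (31.4%) below. The latter were mostly dim genes such as Ugt303B2, with means of 2.20 in wild type and 2.18 in the mutant. Over all probe sets the median difference was only -0.02, so lying below need not mean a sizeable fall. The call of Ugt37A3 was lost in 10 of 21 alternative settings, with an adjusted p of up to 0.251, among them the replicate block (adjusted p = 0.12). It was also lost with only the 6 arrays compared and with 1 array left out: wild-type sucrose replicate 1, 2 or 3, mutant sucrose replicate 2, wild-type phenobarbital replicate 1 or 2, or mutant phenobarbital replicate 1 or 3 (adjusted p of 0.0557 to 0.121). Without wild-type phenobarbital replicate 3, Ugt37C2 was called as well.

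The difference between the responses was tested as an interaction. By limma 0 members were called, as were 0% of all probe sets, and the smallest adjusted p among the members was 0.427. At an unadjusted p under 0.05 there were 9 members, or 25.7%, against 3.32% of all probe sets. In 8 of the 9 the log2 response was larger in the mutant, and the exception, Ugt37A1, was dim. For Ugt37A2, Ugt37B1, Ugt37D1, Ugt302E1, Ugt303A1 and Ugt303B3 the larger part of this lay in lower mutant values on sucrose. Mutant minus wild type was -0.723 on sucrose and 0.049 on phenobarbital for Ugt37A2, and -0.416 and 0.349 for Ugt37B1. In Ugt302C1 (-0.14 and 0.268) and Ugt37A3 (-0.031 and 1.584) the larger part lay on phenobarbital. Ugt37A3 had the largest difference, 1.61 with a 95% interval of 0.97 to 2.26 (limma, adjusted p = 0.43). The differences were 0.77 (0.20 to 1.34) for Ugt37A2, 0.84 (0.01 to 1.67) for Ugt302E1, 0.41 (0.17 to 0.65) for Ugt302C1 and 0.26 (-0.94 to 1.47) for Ugt35C1. Over all 35 members 25 were positive, 71.4% against 44.3% of probe sets, with a median of 0.20 against -0.01. The median was also positive over 83 cytochrome P450 genes, at 0.165, and was -0.001 over 34 glutathione S-transferase genes. Of these genes 4 and 3 had an unadjusted p under 0.05 by limma. The difference of the families was not tested. The 17 female markers, of yolk, eggshell and oocyte, summed to 58619 to 89932 in wild type and 86690 to 122525 in the mutant on sucrose, and to 45907 to 69023 and 79527 to 104893 on phenobarbital. Their mean log2 was 7.40 to 10.05 in wild type and 10.36 to 11.45 in the mutant on sucrose, and 5.97 to 7.44 and 7.26 to 9.37 on phenobarbital. The median difference, mutant minus wild type, was 1.43 on sucrose and 0.95 on phenobarbital, and 0.07 between the responses. Per group 0 to 6 of these markers were dim, and 0 were called between genotypes (3 at an unadjusted p under 0.05 on each diet). The mean log2 of the 4 fat body markers was 5.16 to 5.30 in wild type and 5.63 to 6.28 in the mutant on sucrose, and 5.61 to 6.25 and 7.30 to 7.64 on phenobarbital, where 1 was called higher in the mutant. The part of both lists in the differences between genotypes was not tested. All the interaction values contain the same sucrose arrays, among them wild-type sucrose replicate 3, without which Ugt303A1 was called.

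Genes that supply or recycle the UDP-sugars were read from a list of 18 names, of which 15 genes could be matched. In wild type 2 rose and 0 fell, and in the mutant 5 rose and 1 fell, beside the shares of all probe sets given above. Galk, the galactokinase gene, rose by 1.38 ± 0.12 in wild type and 1.5 ± 0.12 in the mutant (limma, adjusted p = 0.000133 and adjusted p = 7.54e-05). Galt, whose enzyme exchanges galactose and glucose between sugar phosphate and UDP, rose by 0.88 ± 0.13 and 1.02 ± 0.13 (adjusted p = 0.00333 and adjusted p = 0.00127). In the mutant Pgm1, of glucose phosphate conversion, rose by 0.68 ± 0.09, Gfat2, of amino sugar synthesis, by 0.62 ± 0.11 and UGP, which makes UDP-glucose, by 1.12 ± 0.24. UGP was dim in all groups, at 2.42 on sucrose and 3.54 on phenobarbital in the mutant. In wild type the changes were 0.39 ± 0.09 for Pgm1, 0.54 ± 0.11 for Gfat2 and 0.30 ± 0.24 for UGP, without a call. Those of Pgm1 and Gfat2 had an adjusted p under 0.05 by limma but missed the 1.5-fold limit. CG15117, a beta-glucuronidase gene, fell in the mutant by 1.46 on the log2 scale, from 6.12 ± 0.41 to 4.67 ± 0.51 (SD, n = 3; adjusted p = 0.0234). In wild type the change of CG15117 was -1.11 ± 0.31, not called (limma, adjusted p = 0.0854). In the mean over both genotypes CG15117 was called lower, at -1.28 ± 0.22 (limma, adjusted p = 0.00485). For the interaction 0 of the 15 genes were called, as were 0% of all probe sets. The UDP-glucose dehydrogenase gene sgl provides UDP-glucuronic acid. It stood at 0.05 ± 0.10 in wild type and 0.14 ± 0.10 in the mutant, with no call.

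Beside the Ugt genes, 36.1% of 83 cytochrome P450 genes and 47.1% of 34 glutathione S-transferase genes rose in wild type, and 42.2% and 41.2% rose in the mutant. The difference of these shares from the 22.9% and 37.1% of the Ugt genes was not tested.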

How the data were processed

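The deposited values are intensities per probe set on a linear scale, made by the authors with GCRMA, per the submitters' processing notes; of its version the sources used here say nothing. The lowest intensity of an array was 2.46 to 2.50 and the highest 48233 to 52446, from which the linear scale was read. Here log2 was taken, with no further scaling and 0 missing values. The platform table gave gene names, and all 35 Ugt symbols matched RefSeq through their Entrez identifiers. Where a gene has several probe sets, the one with the highest mean was taken.

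Linear models with 1 mean per group were fitted to all 12 arrays and 18769 probe sets with limma 3.58.1 in R 4.3.3 (8 residual degrees of freedom, 8.82 with the prior). Adjusted p-values are Benjamini and Hochberg's over all probe sets. The code was tested on simulated data. The number of arrays limits the precision. Members and lists were chosen with earlier results of these data known. By rule, values are given for every member called in any comparison and for the member with the highest mean in each family. Of the fixed lists, 16 of 17 testis, 14 of 15 accessory gland, 17 of 20 female, 7 of 9 tubule, 6 of 8 midgut, 4 of 6 fat body and 7 of 8 olfactory markers were matched. In the mean over both genotypes the female list gave 0 rises and 5 falls, the tubule list 1 and 2, the fat body list 1 and 0 and the olfactory list 0 and 2. Deviations from group means correlated at -0.71 to 0.70 (median -0.09) between arrays of the same replicate number and at -0.79 to 0.69 (median 0.06) between different numbers. Same-number pairs of the phenobarbital groups correlated at 0.31 to 0.70 and those of the sucrose groups at -0.71 to -0.07. Whether the numbers mark a shared culture or day is not stated in the titles and cannot be told from these ranges. Alternatives were other fold limits, quantile normalization, a robust prior with an intensity trend, an added offset, a filter on dim probe sets, averaged probe sets, a replicate block, each array left out in turn and the 6 arrays compared. Figures were drawn with Python 3.11.15 and matplotlib 3.10.9.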

Additional observations from a re-analysis of the deposited data

How the results depend on the processing

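The rises were stable in number: leaving out 1 array at a time gave 7 to 9 rises in wild type, 11 to 14 in the mutant and 13 to 14 in the mean over both genotypes, and the other alternatives 6 to 9, 11 to 13 and 10 to 14. No called value changed sign. The falls depended on the settings. In wild type 3 members fell with a robust prior and an intensity trend, 3 with dim probe sets left out, 2 with the replicate block and 0 with the 6 arrays compared, and 0 to 2 with 1 array left out. In the mutant 1, 2 and 2 fell with the trend, without dim probe sets and with the 6 arrays compared, and 0 to 2 with 1 array left out. Falls in the mean stayed at 3 with 1 array left out and were 2 at a 2-fold limit. Between genotypes on phenobarbital, 0 members were called higher with the replicate block and 0 with the 6 arrays compared, and 0 to 2 with 1 array left out. On sucrose 0 to 2 were called lower with 1 array left out, and for the interaction 0 to 1 higher. The replicate block, with numbers whose meaning the titles do not give, also ended the call of Ugt35A1 in the mutant. Fewer probe sets tested or fewer arrays are part of the filter and of the fits on 6 arrays; the cause of the other changes was not tested. Folds from dim groups depend on the background: with 16 added to each intensity, the wild-type and mutant rises were 2.16 and 2.70 for Ugt302E1 and 2.23 and 2.75 for Ugt37B1, and in the mutant that of Ugt37C2 1.11 and of Ugt37A3 1.39.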
